A study of Arabidopsis thaliana with 4 samples.

Results

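The mRNAs found on large polysomes in oxygen-deprived Arabidopsis thaliana seedlings were described by the ratio of large-polysome to total RNA signal on Affymetrix ATH1 arrays, which carry a set of short probes for each transcript. The ratio rests on 2 of the 4 arrays of the series, 1 from total RNA and 1 from large-polysome RNA. Both came from wild-type seedlings of the Ler accession, 7 d old and kept in low light, after 12 h of hypoxia. The other 2 arrays held total RNA and large-polysome RNA of non-stressed seedlings of the same age, accession and light. The label of the non-stressed large-polysome array gives 12 h and that of the non-stressed total RNA array gives no time, so a difference in sampling time may enter the control ratio. All groups used whole seedlings, so organs and cell types are mixed in every value, and fewer cells of a type and less mRNA per cell cannot be told apart. With 1 array a group there is no spread between samples, no difference has a replicate check, and no p-value is given.

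A polysome is an mRNA carrying several ribosomes at once. When oxygen runs short, mitochondrial respiration slows and ATP falls, and plants cut back protein synthesis, mostly at initiation, so that many mRNAs leave polysomes while a smaller set stays on them. The share of an mRNA on large polysomes is read as a sign of how densely it is loaded, though it is not a direct measure of protein made. Short coding sequences hold few ribosomes, and coding length was not used here.

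Every array had been scaled to the same mean signal, so a log2 ratio of 0 means that an mRNA was on large polysomes as much as the average mRNA of its arrays, and an overall loss of polysomes cannot be seen. How the 2 conditions are set against each other depends on this scaling. With the arrays scaled on their spiked control RNAs instead, the median log2 ratio of all genes moved by 0.01 in hypoxia but by 0.62 in control, so that 515 of 5721 genes, and not 2846 of 5823, had the higher ratio in hypoxia. Every control ratio given here is therefore relative to the average mRNA of the control arrays. Signals below an intensity floor of 140 were set to it. Genes dimmer than this in both fractions gave no ratio, and for a gene dimmer than this in 1 fraction the ratio is only a bound. Of 13350 named genes, 7043 had a ratio in hypoxia, of which 6224 were above the floor on both arrays and 819 were bounds, and 6307 had none. The array of total RNA in hypoxia was scanned 2 times and the other arrays 1 time. The 3' to 5' signal ratio of the actin control was 1.22 in total RNA and 2.15 in large-polysome RNA in hypoxia, and those of GAPDH and ubiquitin were 1.12 and 1.04 against 1.29 and 1.24. All 3 controls thus had more 3' signal in large-polysome RNA, and the part of this difference in the ratios below was not tested.

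The labels of condition were checked on genes of the core hypoxia response, a set induced by low oxygen across plant organs. Of the 28 members measured, 26 had at least 2-fold more signal in hypoxia than in control in total RNA, and 26 did in large-polysome RNA. Leaf markers were RCA, the activase of the carbon-fixing enzyme Rubisco, at a log2 ratio of -0.07, and the light-harvesting genes LHCB4.2 and LHCB4.3 at -0.21 and 0.46. Root markers were PYK10, a root beta-glucosidase, with signals of 14174 in total and 14151 in large-polysome RNA, and EXPA18, an expansin of root hair cells, with 243.5 and 243.6. Of 9 leaf and 8 root codes only 3 and 2 had a ratio. The leaf markers lay on both sides of 0 and the root markers at about 0, too few genes to compare the organs.

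For most genes large-polysome RNA mirrored total RNA after 12 h of hypoxia. Of the genes above the floor on both arrays, 84.1% lay within 1.5-fold, against 78.2% in control, and the SD of the log2 ratio across genes was 0.43 in hypoxia and 0.50 in control. At least 2-fold more signal in large-polysome than in total RNA was seen for 72 of 7043 genes (1.02%), and at least 2-fold less for 76 (1.08%). In control the counts were 156 of 7483 genes (2.08%) and 207 (2.77%). Of all genes with a ratio, 47.3% were above 0 in hypoxia and 47.4% in control. Probe sets with no listed gene gave like shares, with 56 of 5920 (0.946%) past 2-fold on the high side and 73 (1.23%) on the low side. The median ratio was -0.02 in both conditions.

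**Figure D1:**
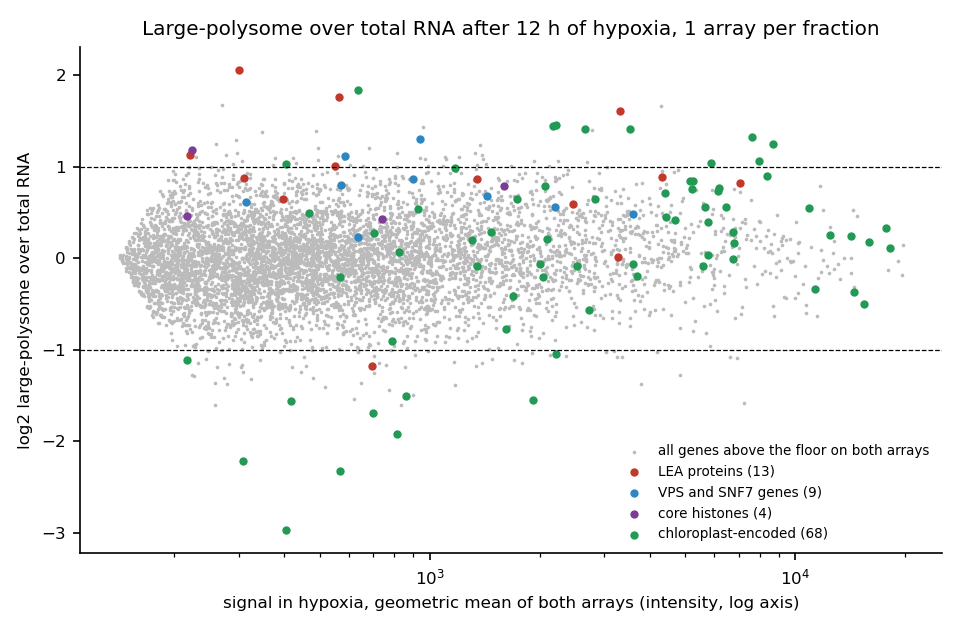
Log2 ratio of large-polysome to total RNA signal in hypoxia (vertical axis) against the geometric mean of both signals (horizontal axis, intensity on a log scale) for genes above the floor on both arrays. Each point is 1 gene, dashed lines mark 2-fold, and numbers in brackets count genes; chloroplast-encoded genes lie at both extremes, and LEA genes lie mostly above 0.

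Different probe sets of the same gene gave log2 ratios that differed by a median of 0.49 in 54 genes, with a 95th percentile of 1.21, so a ratio just past 2-fold can lie within probe error. On the high side 38 genes, and on the low side 35, lay within 0.05 of the 2-fold threshold. Among nuclear genes the ratio depended little on signal level. Those above the floor on both hypoxia arrays were put into 5 equal groups by signal. The dimmest group had a median log2 ratio of -0.06 and the brightest 0.06.

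Genes at the extremes came from both nuclear and organelle genomes. Of the 72 genes on the high side, 60 were nuclear, 10 chloroplast-encoded and 2 mitochondrion-encoded, and of the 76 on the low side 66 were nuclear and 10 chloroplast-encoded. The nuclear counts correspond to 0.861% and 0.948% of 6965 nuclear genes with a ratio.

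Among nuclear genes above the floor in both fractions, the mRNA with the highest ratio encodes a late embryogenesis abundant (LEA) protein, one of a group of hydrophilic proteins that accumulate in drying seeds and in water-stressed tissue. LEA4-5 had a signal of 147 in total RNA and 611 in large-polysome RNA in hypoxia, a log2 ratio of 2.05. Its total RNA signal lay just above the floor, and with a floor of 280 the ratio was 1.13. Its signals in control were 163 and 213, a ratio of 0.38. LEA18, a relative of LEA4-5, had 306 in total and 1039 in large-polysome RNA in hypoxia, a log2 ratio of 1.76. For both LEA genes the total RNA signal was similar in the 2 conditions, and the large-polysome signal was higher in hypoxia than in control.

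AT3G10020, a member of the core hypoxia list, had 2411 in total and 7612 in large-polysome RNA in hypoxia, a log2 ratio of 1.66, and 1147 and 799.6 in control, a ratio of -0.52. AT3G02480, on the LEA list, had 1901 and 5797 in hypoxia, a ratio of 1.61. AT5G37670, on the list of small heat shock proteins, had 583 and 1569, a ratio of 1.43. AT3G10020 and AT3G02480 thus combined a total RNA signal far above the floor with at least 3-fold more signal in large-polysome RNA. AT5G10770 had 151 in total and 481 in large-polysome RNA in hypoxia, a ratio of 1.67, but 1466 and 313 in control, a ratio of -2.23. The remaining genes of these highest 10 nuclear genes, ranked without bounds, were AT3G53990 at 1.40, AT2G42520 at 1.37, SNF7.2 at 1.30 and AT2G25890 at 1.29. Among genes whose total RNA signal was below the floor, AT2G18740 was at least 2.98-fold, AT5G01300 at least 2.94-fold, VPS2.2 at least 2.65-fold, the histone H2B gene HTB1 at least 2.40-fold and AT1G05210 at least 2.1-fold above total RNA.

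Of the 10 lowest nuclear genes above the floor in both fractions, DI19 alone has a name other than its locus code. DI19, known as drought-induced 19, had 12504 in total and 4183 in large-polysome RNA in hypoxia, a log2 ratio of -1.58. In control it had 10343 and 2519, a ratio of -2.04, so this mRNA was under-represented on large polysomes in both conditions. AT1G72640 had 451 and 148 in hypoxia, a ratio of -1.61. AT5G47435 had 1457 and 479, a ratio of -1.60, and -1.65 in control. The next 7 nuclear genes were AT4G00560, AT3G62190, AT4G28080, AT2G45540, AT3G18215, AT2G14910 and AT1G54920, with ratios from -1.53 to -1.37. All 10 of the lowest nuclear genes were below 0 in control as well, relative to the average mRNA of the control arrays. Among genes whose large-polysome signal was below the floor, AT3G25680 was at least 2.36-fold, AT2G20780 at least 2.31-fold, AT5G27860 at least 2.26-fold, AT2G21300 at least 2.09-fold and the myosin gene XIH at least 2.08-fold below total RNA.

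**Figure D2:**
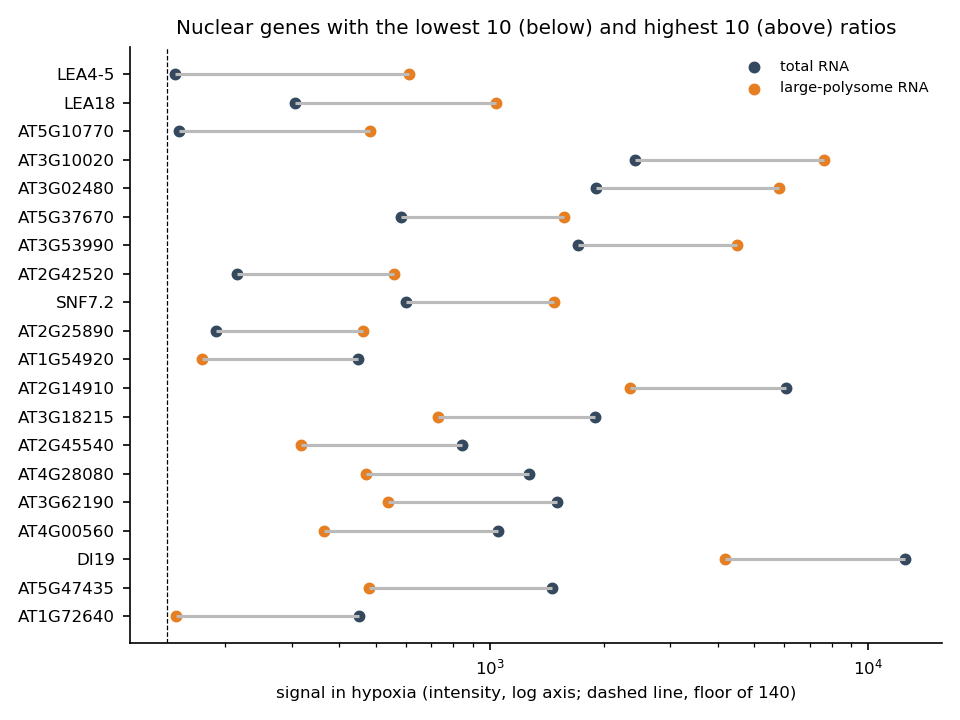
Signals in total RNA (dark points) and large-polysome RNA (orange points) in hypoxia for the 10 nuclear genes with the highest ratios (upper rows, LEA4-5 at the top) and the 10 with the lowest (lower rows, AT1G72640 at the bottom), 1 array per fraction, on a log intensity axis with the floor of 140 dashed. The gap runs from 2.45-fold for AT2G25890 to 4.15-fold for LEA4-5 in the upper rows, and from 2.59-fold for AT1G54920 to 3.05-fold for AT1G72640 in the lower rows.

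Relative to the average mRNA of each condition, nuclear genes that were extreme in hypoxia mostly leaned the same way in unstressed seedlings. The control signs rest on the deposited scaling, since spiked-control scaling raised the median control ratio of all genes by 0.62. Of the 60 nuclear genes on the high side in hypoxia, 56 had a ratio in control, 48 of them above 0, with a median of 0.61, and 12 at least 2-fold higher there too. Over all 7409 nuclear genes with a ratio in control, 47.6% were above 0, 1.98% were past 2-fold on the high side and 2.6% on the low side. Of the 66 on the low side, 65 had a ratio in control, 59 of them below 0, with a median of -0.63, and 21 at least 2-fold lower there too. Over 5752 nuclear genes with signal above the floor everywhere, Pearson's r between the ratios of both conditions was 0.43, as a description across genes. The ratios share no array, but genes are not independent replicates.

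Stored-seed and desiccation transcripts stood among the classes with the highest ratios. Of the 53 codes on the LEA list, 37 had a named probe set and 16 had a ratio, 15 of them above 0, with a median log2 ratio of 0.84 in hypoxia and 0.27 in control. At least 2-fold higher were 5, LEA4-5, LEA18, AT3G02480, AT3G15670 and AT3G17520, the last 2 at 1.12 and 1.01. The dehydrin genes COR47 and LTI30, which respond to cold and drought, had 0.83 and 0.59. DI21 was the exception, with 1046 in total and 463 in large-polysome RNA, a ratio of -1.18. Of 13 LEA genes above the floor on all 4 arrays, 11 had a higher ratio in hypoxia than in control, and 6 of 11 did with spiked-control scaling. Over all genes so measured the shares were 48.9% and 9.0%.

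Of the 22 codes for seed storage and oil body proteins, 9 had a named probe set and only 4 had a ratio. AT2G25890 had 188 in total and 461 in large-polysome RNA, a ratio of 1.29. PAP85 and AT2G28490 were below the floor in total RNA, with bounds of at least 1.99-fold and 1.86-fold on the high side, and AT3G01570 had a ratio of 0.98. The median of the list was 0.98 in hypoxia and 0.96 in control.

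The measured histone mRNAs also had high ratios, with 4 of 6 genes above the floor in both fractions. Every measured member with a name other than its locus code was an HTB gene, for histone H2B, so other histone types may not be covered. Histones package DNA, and their mRNAs are made mainly in dividing cells. Of 11 named genes 6 had a ratio, all above 0, with a median of 0.91, which was 0.27 with a floor of 280. In control 8 genes had a median of 0.78. Of the 4 genes above the floor on every array 1 had the higher ratio in hypoxia, against 48.9% of all genes. With spiked-control scaling 1 of 4 did, against 9.0% of all genes. HTB2, an H2B gene, had 148 in total and 335.5 in large-polysome RNA, a ratio of 1.18. HTB4 had 1214 and 2091, a ratio of 0.78, and HTB11 637 and 859, a ratio of 0.43. Of the others, HTB1 and AT2G28720 were bounds past 2-fold and AT2G37470 stood at 0.46. The 5 measured NRPB genes, for subunits of RNA polymerase II, were all above 0 as well. NRPB7 had 0.25, NRPB6B 0.55, NRPB6A 0.72 and NRPB12 0.78, and NRPB9B was at least 1.75-fold on the high side.

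The vacuolar sorting genes named VPS and SNF7 were high as a family. Like all lists but the core hypoxia, leaf and root lists, this list was added after the values had been seen, so its counts are a description only. Their products belong mainly to the ESCRT machinery, which sorts ubiquitin-tagged membrane proteins into multivesicular bodies on the way to the vacuole. All 10 measured members were above 0, with a median of 0.74 in hypoxia and 0.27 in control. SNF7.2 had 599 in total and 1478 in large-polysome RNA, a ratio of 1.30, and its relative SNF7.1 had 434 and 755, a ratio of 0.80. VPS60.2 had 398 and 863, a ratio of 1.12, and VPS60.1 668 and 1213, a ratio of 0.86. With VPS2.2, 3 of the 10 were thus at least 2-fold higher. The lowest was VPS20.1, with 588.5 and 689, a ratio of 0.23. Of 9 members above the floor on all 4 arrays, all 9 had a higher ratio in hypoxia than in control, where 48.9% of all 5823 genes so measured did. With spiked-control scaling 2 of the 9 did, against 9.0% of all 5721 genes.

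Autophagy genes, whose products form the vesicles that carry cell contents to the vacuole for breakdown, were moderately high. All 10 measured members were above 0, with a median of 0.45 in hypoxia and 0.29 in control. None reached 2-fold. Of the 10, 5 had the higher ratio in hypoxia, near the share of 48.9% over all genes. With spiked-control scaling 1 of the 10 did, near the share of 9.0% over all genes. The highest was ATG8H at 0.79 and the lowest ATG8B at 0.22. ATG8E, like both of these a gene for the ubiquitin-like ATG8 protein that is bound to the vesicle membrane, had 2519 in total and 3914 in large-polysome RNA, a ratio of 0.64.

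The mRNAs of the core hypoxia response had ratios slightly above the average. Of 52 codes 29 had a named probe set and 28 a ratio, 26 of them above 0, where 47.3% of all genes were. The median was 0.28 in hypoxia and 0.05 in control. Of 24 above the floor on every array 15 had the higher ratio in hypoxia, against 48.9% of all genes. With spiked-control scaling the medians were 0.29 in hypoxia and 0.70 in control. On that scaling 7 of the 24 had the higher ratio in hypoxia, against 9.0% of all genes. Apart from AT3G10020 no member of the list was past 2-fold in hypoxia. PDC2, a pyruvate decarboxylase of ethanol fermentation, had 3658 in total and 4467 in large-polysome RNA, a ratio of 0.29. CML38, a calmodulin-like calcium sensor, had 3788 and 4649, a ratio of 0.30. AT3G10040 was the lowest, with 2714 and 1802, a ratio of -0.59, and AT4G27450 was the other below 0, at -0.19. AT1G33055 had nearly the same signal in both fractions, 13577 and 13578.

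Small heat shock proteins, chaperones that hold unfolding proteins, had higher ratios than the core hypoxia genes by their median. All 8 measured genes were above 0, with a median of 0.72. In control 7 genes had a median of 0.08. Of the 4 genes above the floor on every array 2 had the higher ratio in hypoxia, against 48.9% of all genes. With spiked-control scaling the medians were 0.73 in hypoxia and 0.75 in control. On that scaling 2 of 5 genes had the higher ratio in hypoxia, against 9.0% of all genes. AT1G54050 had 3351 in total and 6439 in large-polysome RNA, a ratio of 0.94, and AT1G53540 had 3342 and 5852, a ratio of 0.81. AT1G52560 had 165 and 275, a ratio of 0.74, and ATHSP22.0 1494 and 2431, a ratio of 0.70. AT4G21870, AT2G29500 and AT5G51440 stood at 0.58, 0.47 and 0.46. AT5G37670, described above, was the member past 2-fold.

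The protein synthesis apparatus sat near the average in hypoxia and above it in control. Of 136 named cytosolic ribosomal protein genes 116 had a ratio, 73 of them (62.9%) above 0, with a median of 0.09. In control 114 of 119 were above 0, with a median of 0.60 and 23 at least 2-fold higher. Of 113 genes above the floor on all 4 arrays, 7 had a higher ratio in hypoxia than in control, and none did with spiked-control scaling. Over all genes these shares were 48.9% and 9.0%. AT3G06700, with 1335 in total and 2785 in large-polysome RNA and a ratio of 1.06, was the gene past 2-fold in hypoxia, and AT1G01100, with 8573 and 5427 and a ratio of -0.66, was the lowest. The 15 translation factor genes had a median of -0.01 in hypoxia and 0.46 in control, with AT5G12110 highest at 1.09 and AT5G19510 lowest at -0.60.

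**Figure D3:**
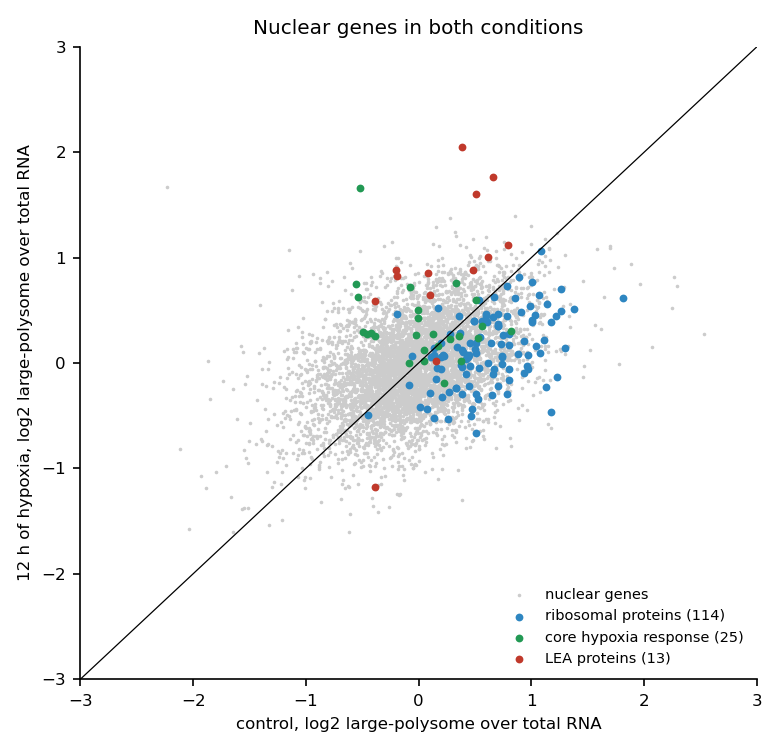
Log2 ratio of large-polysome to total RNA in hypoxia (vertical axis) against the same ratio in control (horizontal axis) for nuclear genes above the floor on both hypoxia arrays and on at least 1 control array. The line marks equal ratios; ribosomal protein genes lie mostly below it, as 7 of the 113 above the floor on all 4 arrays had the higher ratio in hypoxia, and LEA genes mostly above it.

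Other housekeeping complexes differed. For mitochondrial respiration 52 nuclear genes had a ratio, 41 of them above 0, and their median was 0.31, against 0.36 in control. AT1G80230 had 963.5 in total and 2039 in large-polysome RNA, a ratio of 1.08, and AT2G19680 had 301 and 618, a ratio of 1.04. AT1G14450 was the lowest, at -0.49. The 9 proteasome genes had a median of 0.02 against 0.37 in control, between AT1G45000 at 0.62 and AT1G04810 at -0.31. The 12 nuclear photosynthesis genes had a median of -0.09 against 0.13 in control. Of the 12, 8 had the higher ratio in hypoxia, against 48.9% of all genes. None did with spiked-control scaling, against 9.0% of all genes. Among the 12 photosynthesis genes PSBW, a small photosystem II subunit, had 6903 in total and 9173 in large-polysome RNA, a ratio of 0.41. AT2G26500 had 14250 and 9194, a ratio of -0.63.

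Some enzyme and signalling families had medians from near 0 to 0.30, and single members stood out. Other enzyme families, given further on, had medians below 0. Glutathione S-transferases, which conjugate toxic compounds, had a median of 0.26 over 9 genes with 7 above 0, and -0.22 in control. The highest was GSTU20, at 0.96. GSTU25 had 2872 in total and 3971 in large-polysome RNA, a ratio of 0.47, and GSTU18 was lowest at -0.17. UDP-glycosyltransferases had a median of 0.08 over 23 genes against -0.20 in control, from UGT76C2 at -0.48 to UGT76B1 at 0.81. Beta-glucosidases had 0.04 over 11 genes against -0.60 in control, from BGLU28 at -0.14 to BGLU19 at 0.70. Calmodulin-like genes, for calcium sensors, had 0.30 over 7, with 6 above 0. Besides CML38, CML41 stood at 0.63, CML30 at 0.62, CML42 at 0.30 and CML43 at -0.33, and CML37 and CML23 were at least 1.77-fold and 1.14-fold higher. Among ubiquitin-conjugating enzymes UBC30 had 1173 and 2364, a ratio of 1.01, and UBC28 had 9617 and 4547, a ratio of -1.08, against -1.07 in control. LCR67, a plant defensin gene, had 199.1 and 441, a ratio of 1.15. All 5 measured genes of its class, defensins and other small cysteine-rich peptides, were above 0, with a median of 0.47 against 1.29 over 4 genes in control.

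Several small nuclear classes had medians below 0. In those described here only 1 RALF-like gene and 1 tetraspanin gene reached 2-fold. Subtilases, serine proteases mostly secreted to the cell wall, had a median of -0.43 over 5 genes, and -0.50 in control. ATSBT5.2 had 496 in total and 347 in large-polysome RNA, a ratio of -0.51, SBT1.3 -0.46, SBT3.12 -0.43 and SBT4.12 -0.24, and SBT3.5 was alone above 0, at 0.42. AGAMOUS-like genes, for MADS-box transcription factors, had a median of -0.38 over 6, and -0.27 in control. AGL26 had 3007 and 1617, a ratio of -0.89, AGL16 -0.57 and AGL18 -0.24. AGL65 was at least 1.43-fold lower, AGL61 at least 1.15-fold lower and AGL80 at least 1.03-fold higher. Trichome birefringence-like genes, for enzymes that acetylate wall polysaccharides, had -0.19 over 11, and -0.47 in control, with 2 above 0 in hypoxia and TBL35 lowest at -0.82. Aldehyde dehydrogenases, TON1 recruiting motif genes, serine carboxypeptidase-like genes and cytochrome P450 genes had medians of -0.19, -0.18, -0.13 and -0.11, against -0.22, -0.28, -0.05 and -0.14 in control. The 7 tubulin genes, for the subunits of microtubules, had -0.25, and 0.05 in control. TUA1 stood at -0.54, TUB5 at -0.31, TUA6 and TUB9 at -0.25, TUB7 at -0.05, TUB6 at 0.16 and TUB1 at 0.48. The 6 SWEET sugar transporter genes had -0.24, and -0.33 in control. SWEET11 stood at -0.56, SWEET1 at -0.42, SWEET2 at -0.35, SWEET16 at -0.10 and SWEET17 at 0.05, and SWEET8 was at least 1.09-fold lower. All 6 plant U-box genes, for ubiquitin ligases, were below 0 but close to it, with a median of -0.06, and all 6 were below 0 in control too, with a median of -0.24. PUB43 and PUB23 stood at -0.17, PUB24 at -0.06, PUB19 at -0.05, PUB49 at -0.03 and PUB22 at -0.01. RALF-like peptide genes and tetraspanin genes had medians close to 0, at -0.03 and -0.02. Their single genes past 2-fold were RALFL32, for a secreted signalling peptide, with 510 and 205 and a ratio of -1.32, and the tetraspanin gene TET5, with 632 and 278 and a ratio of -1.19.

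**Figure D4:**
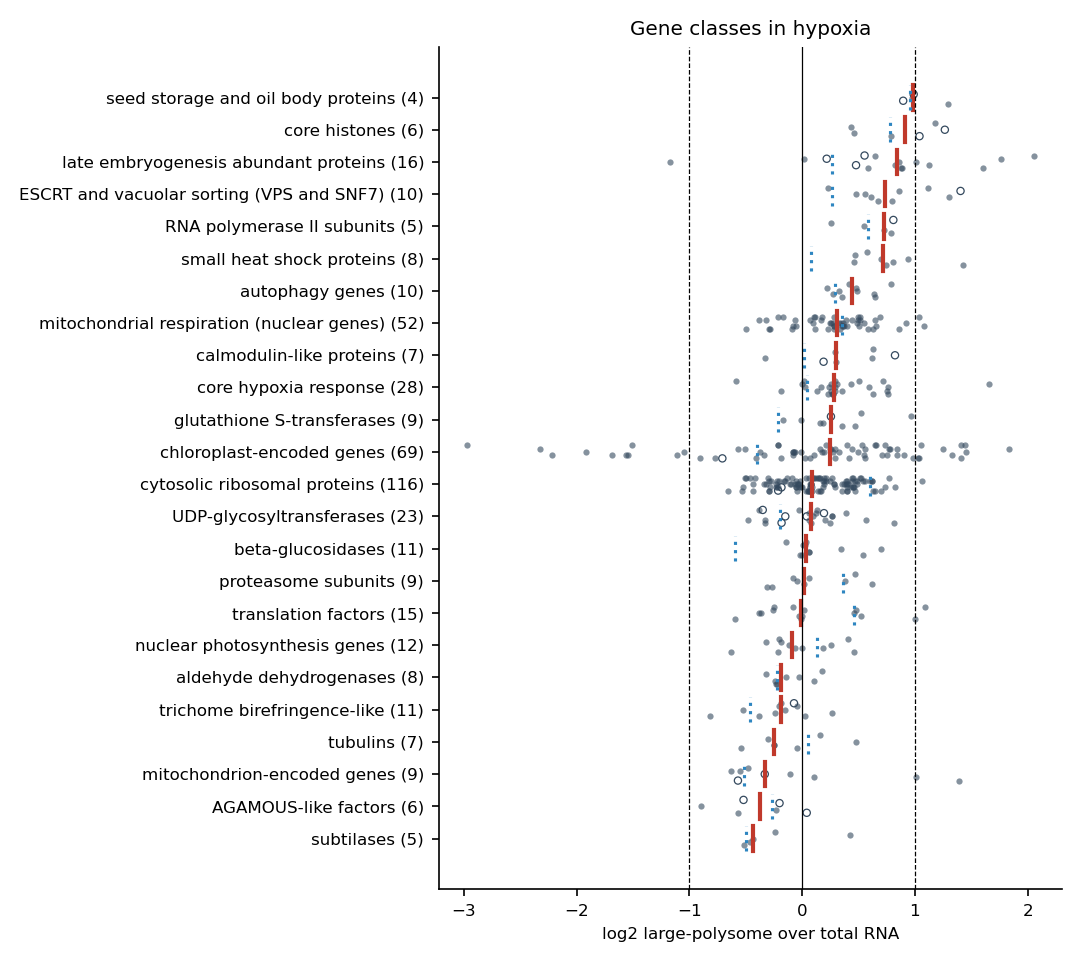
Log2 ratio of large-polysome to total RNA in hypoxia for the genes of 24 classes, with the number of genes that had a ratio in brackets. Filled points are genes above the floor on both arrays, open points bounds, red bars class medians in hypoxia and dotted blue bars those in control; medians run from -0.43 for subtilases to 0.98 for seed storage and oil body proteins, and dashed lines mark 2-fold.

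Chloroplast-encoded mRNAs had the widest spread, with an SD of 0.98 over 69 genes and a median of 0.24 in hypoxia and -0.40 in control, the latter 0.27 with spiked-control scaling. They are translated on the chloroplast's own ribosomes. At both ends of the ratio 10 of the 69 were past 2-fold. Of the 10 highest genes of all genomes above the floor in both fractions 4 were chloroplast-encoded, or 3 when bounds were ranked at their bound, and of the 10 lowest 7 were either way.

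The lowest was rps14, for a ribosomal protein, with 1130 in total and 144 in large-polysome RNA in hypoxia, a log2 ratio of -2.97. Next was petD, for subunit IV of the cytochrome b6f complex, with 1270 and 253, a ratio of -2.33. In control petD had 162 in total and 935 in large-polysome RNA, a ratio of 2.53. The pattern of petD was thus turned round between conditions, in total as well as in large-polysome RNA. Also low were rpoB, for a subunit of the chloroplast RNA polymerase, at -2.22, ycf3, for an assembly factor of photosystem I, at -1.92, and the small cytochrome b6f subunit genes petN and petG at -1.69 and -1.51. The ATP synthase gene atpI stood at -1.56, ndhG of the NDH complex at -1.55, rps16 at -1.11 and ccsA, for a factor of cytochrome c assembly, at -1.05. The large-polysome signals of rps14, rpoB and rps16 lay just above the floor. With a floor of 280 their ratios were -2.01, -1.25 and -0.19, and that of petD was -2.18. All 10 of these low genes were above 0 in control, rps14 and rpoB as bounds, and 7 were past 2-fold. All 10 had more signal in total RNA, and less in large-polysome RNA, in hypoxia than in control. The genes were picked on the same 2 hypoxia signals, which favours this direction in advance.

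The highest was rpoC2, for another subunit of the same RNA polymerase, with 337 in total and 1204 in large-polysome RNA in hypoxia, a ratio of 1.84. It had 806 and 396 in control, a ratio of -1.03. The polymerase genes rpoC1 and rpoA had 1.45 and 1.04, the ATP synthase genes atpF and atpA 1.44 and 1.33, and the photosystem I genes psaI and psaB 1.41 and 1.25. The ribosomal protein genes rps2 and rps15 had 1.41 and 1.03, and the protease gene clpP 1.06. All 10 had less signal in total RNA, and more in large-polysome RNA, in hypoxia than in control, and 8 of them were below 0 in control. Here too the genes were picked on the same 2 hypoxia signals.

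Neighbouring genes could differ in direction. In the order of the RefSeq chloroplast genome rpoC2 and rpoC1, both high, lie next to rpoB, which was low, and atpI, which was low, lies beside rps2, which was high. By complex, the median log2 ratio was 1.25 for 4 RNA polymerase genes, 0.64 for 5 photosystem I genes, 0.28 for 6 ATP synthase genes, 0.21 for 15 ribosomal protein genes, 0.16 for 10 NDH genes, -0.08 for 15 photosystem II genes and -0.67 for 6 cytochrome b6f genes. psbA, for the D1 reaction centre protein of photosystem II, had 1382 in total and 1304 in large-polysome RNA in hypoxia, a ratio of -0.08, but -3.42 in control.

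**Figure D5:**
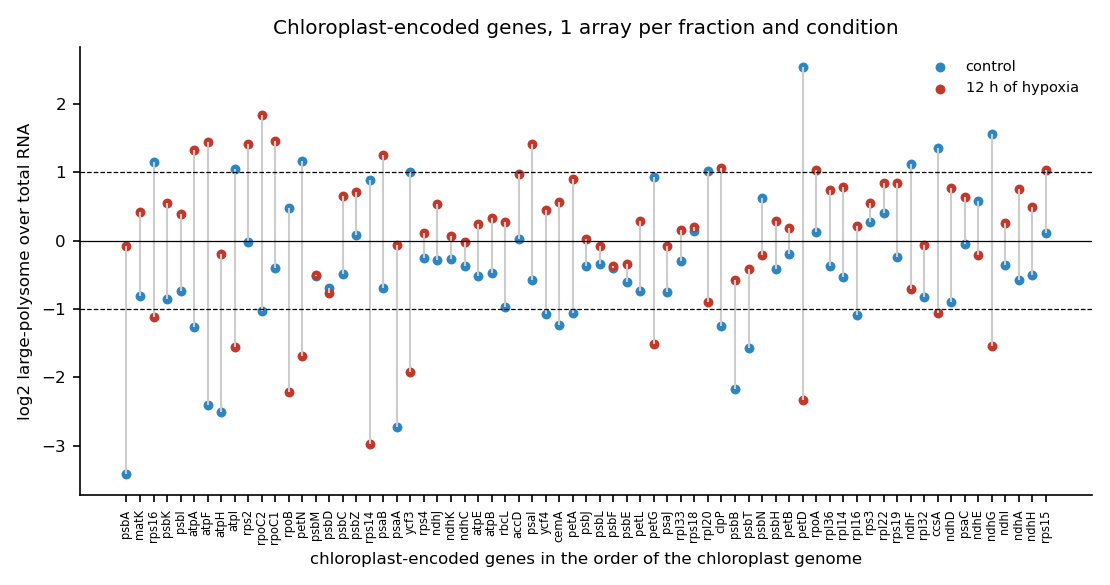
Log2 ratio of large-polysome to total RNA for 69 chloroplast-encoded genes in their order along the chloroplast genome, in control (blue) and after 12 h of hypoxia (red), 1 array per fraction and condition, with a grey line joining both values of a gene. Dashed lines mark 2-fold. With the deposited scaling 49 of the 69 genes have opposite signs in the 2 conditions, a count that depends on the scaling of the control arrays.

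Across the 69 genes Pearson's r between the ratios of both conditions was -0.51, where the nuclear genes gave 0.43. With the deposited scaling 49 of the 69 had opposite signs. This count depends on the scaling, as the median control ratio of chloroplast-encoded genes was -0.40, but 0.27 with spiked-control scaling. Of those above the floor on all 4 arrays, 54 of 66 had the higher ratio in hypoxia, against 48.9% of all genes. With spiked-control scaling 38 of 64 did, against 9.0%. The log2 signals themselves showed which arrays were alike. For chloroplast-encoded genes total RNA in control and large-polysome RNA in hypoxia had the highest correlation of the 6 pairs of arrays, with r of 0.97, and the other 5 pairs had 0.86 to 0.89. For nuclear genes the highest was 0.95, between both hypoxia arrays, followed by 0.93 between both control arrays, and the pair of total RNA in control and large-polysome RNA in hypoxia had 0.83. These are descriptions across genes on 1 array each, and what the chloroplast-encoded pattern comes from was not tested. For 9 mitochondrion-encoded genes, 7 of which were above the floor in both fractions, the median was -0.33. The sign of this median turned with the floor: it was -0.11 without the bounds and 0.48 with a floor of 280. nad4, for a subunit of respiratory complex I, had 300.5 and 788, a ratio of 1.39, and ccb382 had 699 and 1404, a ratio of 1.01. cox1, for a subunit of cytochrome c oxidase, was lowest with 656 and 424.5, a ratio of -0.63.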

How the data were processed

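The values were the authors' deposited probe set intensities on a linear scale, 1 value per probe set and array. How probes were summarised and background removed is not given in the sources used here. As the deposited values show, the mean intensity between the 2nd and 98th percentiles was 499 to 500 on each array. Per the file headers, all arrays came from 1 chip lot. Between 54.5% and 59.8% of the 22746 non-control probe sets were above the intensity floor of 140 on an array; the number of arrays limits the precision.

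Gene names came from GEO's platform annotation and were brought up to date by Entrez identifier with RefSeq (assembly TAIR10.1, used for names and gene order only): 13513 had 1 gene (13436 matched to RefSeq, 77 not), 503 had several, and 8730 without an entry stay unnamed. Of the genes with a ratio, 1035 had a symbol other than a locus code. Where a gene had several probe sets, the brightest on average was used. Values were set to the floor, log2 ratios taken and genes past 2-fold counted (Python 3.11.15, numpy 2.4.6, pandas 2.3.3), and the code was tested on simulated data.

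The members and gene lists were chosen with earlier results of these data known. Class lists by locus code were written from general knowledge of the codes, and families by RefSeq symbol, and all but the core hypoxia, leaf and root lists were added after the values had been seen. A gene known only by its code is described only by its list. Classes meant to be formed from gene descriptions could not be, as no descriptions were used. Named are the 10 highest and lowest genes, overall and nuclear, the 5 largest bounds at each end, and in each class its extremes and members past 2-fold (all members where 8 or fewer had a ratio and the class is described), with others as examples. Alternatives were quantile normalization, scaling on spiked controls, floors of 70 and 280, genes above the floor on both arrays, averaging a gene's probe sets, and leaving out cross-matching probe sets.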

Additional observations from a re-analysis of the deposited data

Results flagged for a closer look

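In 14 genes above the floor on all 4 arrays the ratio of large-polysome to total RNA was past 2-fold in opposite directions in the 2 conditions. The difference was not tested, since each group has 1 array. With spiked-control scaling 9 of the 14 stayed so, and the control ratios of rpoC2, atpA, clpP, ccb382 and AT4G13580 were within 2-fold. The first 11 are chloroplast-encoded. In log2 units, first in hypoxia and then in control, petD had -2.33 and 2.53, ycf3 -1.92 and 1.01, petN -1.69 and 1.16, atpI -1.56 and 1.04, ndhG -1.55 and 1.56, rps16 -1.11 and 1.15, and ccsA -1.05 and 1.35. In the other direction, rpoC2 had 1.84 and -1.03, atpF 1.44 and -2.41, atpA 1.33 and -1.27, and clpP 1.06 and -1.25. The mitochondrion-encoded ccb382 had 1.01 and -1.31. The nuclear genes were AT5G10770, with 1.67 and -2.23, and AT4G13580, with 1.07 and -1.15.

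Class medians of opposite sign, each at least 0.2 from 0, were found for chloroplast-encoded genes as a whole, 0.24 in hypoxia and -0.40 in control, and, untested as well, for photosystem I, 0.64 and -0.70, cytochrome b6f, -0.67 and 0.37, ATP synthase, 0.28 and -0.89, and the remaining chloroplast-encoded genes, 0.43 and -0.89. The nuclear glutathione S-transferases had 0.26 and -0.22. The control medians depend on the scaling. With spiked-control scaling those of glutathione S-transferases and of all chloroplast-encoded genes were 0.37 and 0.27, and those of photosystem I, cytochrome b6f, ATP synthase and the remaining genes -0.02, 1.04, -0.22 and -0.22.

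A control probe set for 5S ribosomal RNA, outside the comparisons above, had a signal of 993.7 in total RNA in hypoxia, 139 in total RNA in control, and 47.0 and 60.8 in large-polysome RNA in control and hypoxia. The control probe set for 25S ribosomal RNA had 358 and 352 in total RNA in hypoxia and control, and 254 and 64.4 in large-polysome RNA.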

How the results depend on the processing

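The number of genes past 2-fold depended on the floor. With a floor of 70 it was 116 on the high side and 157 on the low side, since more dim genes had a ratio. The alternatives were run on the 67 genes that lead the ranks or are class members past 2-fold. With a floor of 280, 46 of the 67 stayed past 2-fold in the same direction, and the medians of core histones, seed storage and oil body proteins and mitochondrion-encoded genes moved to 0.27, 0.47 and 0.48, the last with the sign turned. Under quantile normalization 61 did, with AT3G06700, AT3G17520, UBC30, ccb382, rpoA and rps15 just short of it, UBC30 lowest at 0.95. All 67 did with averaged probe sets and without cross-matching probe sets. All 67 also did with scaling on spiked controls, which hardly moved the hypoxia ratios, and with a floor of 70, as did the 56 above the floor on both arrays. A lower floor can only keep or widen a ratio and leaving out bounds keeps it as it is, so these 2 settings could not have failed. Of all 585 class members, none with a ratio at least 0.2 from 0 changed sign under quantile normalization or with averaged probe sets. The same held for the 581 that had a ratio without cross-matching probe sets. Another floor or leaving out bounds cannot turn the sign of a gene, and scaling on spiked controls hardly moved the hypoxia ratios, so these settings are no check of sign. Medians close to 0 changed sign for IQD proteins under quantile normalization, for RALF-like peptides with bounds left out, for RALF-like peptides, cytochrome P450 enzymes and proteasome subunits at a floor of 280, and for root markers. Scaling on spiked controls moved the median of all genes in hypoxia by 0.01 and quantile normalization by 0.03, and in control by 0.62 and 0.05. The planned medians by protein length were not run, since no protein lengths were used. No paired analysis was possible because each group has 1 array and no test was made. Genes with a signal near the floor are the least certain.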
